A study of Homo sapiens with 15 samples.

Results

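The 7 genes described here encode the inhibitors of cyclin-dependent kinases (CDKs). They were found by symbol among the 19684 genes of the deposited tables, and all 7 were present. CDKN1A (p21), CDKN1B (p27) and CDKN1C (p57) form the CIP/KIP family of 3 genes, and CDKN2A (p16 and p14ARF), CDKN2B (p15), CDKN2C (p18) and CDKN2D (p19) form the INK4 family of 4 genes. They were chosen by family membership and by their levels in these same 15 libraries, which were already known, so their levels, fold changes and calls are given as a description, and no p-value is given for any of them.

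The libraries were poly(A) RNA-seq of the BC1-GFP line, a human induced pluripotent stem cell (hiPSC) line that carries GFP and is labelled wild type, and of cells made from it. There were 15 libraries, 3 in each of 5 groups: undifferentiated hiPSCs, the neural retina layers of retinal organoids at day 70 (D70-RO) and at day 150 (D150-RO), and induced Müller glial cells (iMGCs) at passage 1 (P1) and passage 5 (P5). The iMGCs were expanded on a coated surface in serum-containing medium from the neural retina layers of D150-ROs and were collected on the fifth day of a passage. All libraries came from 1 line, and the organoid libraries pooled several organoids. The methods give 3 independent experiments a group, and the sample labels number 3 libraries in each. The series text, however, gives fewer experiments for hiPSCs and organoids. It also names a second sequencing company and a batch correction without naming the libraries. A batch that followed the groups therefore cannot be told apart from the groups, and the spread between libraries may be technical in part.

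CIP/KIP proteins bind cyclin-CDK complexes broadly, above all those of CDK2, whereas INK4 proteins bind CDK4 and CDK6 and keep them from their D-type cyclins. Both families hold the retinoblastoma protein in the form that represses E2F target genes, so that a cell stays out of S phase. In the developing retina p27 and p57 act when progenitors leave the cell cycle, and p27 is known for keeping Müller glia quiescent. CDKN1A is a classic gene of the DNA damage response, and the CDKN2A/CDKN2B locus is held silent by Polycomb proteins in stem cells and opens in cultured and senescent cells.

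The total of expected counts ran from 11349600 to 20398755 per library, with D70-RO replicate 2 the lowest. The summed FPKM (fragments per kilobase of transcript, scaled to library size) was 387551 to 406276 in D150-ROs and 518652 to 570482 in hiPSCs and D70-ROs, so FPKM levels are not on an identical footing in all groups. Pluripotency markers were summed to 3161 to 3344 FPKM in hiPSCs and to at most 8.96 FPKM elsewhere. The 6 photoreceptor markers summed to 853 to 973 FPKM in D150-ROs and at most 0.56 FPKM in iMGCs, where CRX was listed at 0. Of the 7 Müller glia markers, 5 were lower in P1 iMGCs than in D150-ROs. RLBP1 (33.5 FPKM in D150-ROs) and AQP4 (0.19) were listed at 0 in P1 iMGCs, SLC1A3 stood at 28.0 and 0.37 FPKM, GLUL at 100.2 and 13.4, and SOX9 at 42.6 and 5.21, the last close to the 4.94 FPKM of hiPSCs. VIM (1065 and 2160 FPKM) and CRYAB (10.9 and 30.2) were higher. The 8 fibroblast and mesenchymal markers summed to 11.4 to 14.9 FPKM in D150-ROs, 2184 to 2288 FPKM in P1 and 2479 to 2725 FPKM in P5 iMGCs, with COL1A1 at 2000 FPKM in P1. COL1A1, COL1A2, COL3A1, DCN, LUM and TWIST1 were higher in P1 iMGCs than in D150-ROs, whereas PDGFRA (6.30 and 0.11 FPKM) and PRRX1 (0.09 and 0.01) were lower. Microglia markers summed to at most 0.94 FPKM in organoids and iMGCs.

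CDKN2A and CDKN2B lie beside each other on chromosome 9 and both had their highest levels in iMGCs, so their promoters are shown, with that of CDKN1A, the most abundant of the 7 in those cells, for comparison. Each window holds 250 bases before and 50 bases after an annotated RefSeq start, in build GRCh38.p14, and is written 5′ to 3′ on the gene's strand. Capitals mark matches of the GC box GGGCGG on either strand. CDKN2A has separate starts for p16 and, farther upstream, for p14ARF.
CDKN2A p16 start, chr9:21974808-21975107, minus strand: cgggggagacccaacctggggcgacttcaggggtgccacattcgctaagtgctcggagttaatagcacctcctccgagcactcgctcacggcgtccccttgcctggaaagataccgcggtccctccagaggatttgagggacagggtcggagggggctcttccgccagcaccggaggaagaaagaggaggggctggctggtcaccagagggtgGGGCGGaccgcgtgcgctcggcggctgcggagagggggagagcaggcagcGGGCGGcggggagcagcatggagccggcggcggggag
CDKN2A upstream start, chr9:21995275-21995574, minus strand: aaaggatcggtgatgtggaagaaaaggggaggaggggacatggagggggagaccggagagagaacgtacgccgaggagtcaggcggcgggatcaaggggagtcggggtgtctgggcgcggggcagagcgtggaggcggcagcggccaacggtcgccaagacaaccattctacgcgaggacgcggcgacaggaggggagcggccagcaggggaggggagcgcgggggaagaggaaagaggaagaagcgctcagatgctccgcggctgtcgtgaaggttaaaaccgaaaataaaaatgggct
CDKN2B, chr9:22009256-22009555, minus strand: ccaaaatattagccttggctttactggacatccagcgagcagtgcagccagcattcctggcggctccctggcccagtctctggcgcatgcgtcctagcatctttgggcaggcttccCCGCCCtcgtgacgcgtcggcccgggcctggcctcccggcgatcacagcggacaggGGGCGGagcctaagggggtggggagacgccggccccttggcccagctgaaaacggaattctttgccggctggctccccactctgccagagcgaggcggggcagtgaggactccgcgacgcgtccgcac
CDKN1A, chr6:36678464-36678763, plus strand: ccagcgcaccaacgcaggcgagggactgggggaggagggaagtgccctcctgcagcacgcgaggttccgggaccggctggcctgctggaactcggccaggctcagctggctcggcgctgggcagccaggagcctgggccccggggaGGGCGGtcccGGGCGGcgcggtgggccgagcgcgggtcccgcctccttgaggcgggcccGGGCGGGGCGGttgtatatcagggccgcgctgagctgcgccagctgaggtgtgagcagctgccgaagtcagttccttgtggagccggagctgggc
The 4 windows were rich in G and C, at 69.0% for the p16 start, 63.3% for the upstream start, 67.3% for CDKN2B and 74.3% for CDKN1A, against a median of 58.7% over 35116 windows. The GC box, which SP1 binds, occurred 2 times at the p16 start, 0 times at the upstream start, 2 times in CDKN2B and 4 times in CDKN1A, where 2 of the matches overlap. It was in 45.0% of all windows, and 4 or more matches were in 9.06%. None of the 4 windows held TATAAA, which was in 11.5% of all windows, CCAAT (34.6%), CACGTG (7.26%) or the E2F motif TTTNNCGC (6.89%), each searched on both strands, and TGACG (24.6%) occurred 1 time in CDKN2B and in no other of the 4. These letters describe the windows and show no binding.

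The make-up of the family differed between groups. In hiPSCs the CIP/KIP genes CDKN1B, CDKN1A and CDKN1C held 38.2% ± 1.38, 33.0% ± 0.63 and 23.4% ± 0.55 (SD, n = 3) of the summed FPKM of the 7 genes. In D70-ROs CDKN1A held 57.7% ± 5.33, and in D150-ROs CDKN1B was again ahead with 44.7% ± 0.85. In P1 iMGCs CDKN1A held 77.7% ± 0.93, CDKN2B 9.47% ± 0.12 and CDKN2A 8.49% ± 0.65, whereas CDKN1B was down to 3.20% ± 0.25 and CDKN1C to 0.38% ± 0.06. The sum of all 7 genes was 39.0 ± 2.12 FPKM in hiPSCs, 243.7 ± 41.6 in D70-ROs, 119.3 ± 5.60 in D150-ROs, 369.2 ± 3.11 in P1 and 393.6 ± 9.86 in P5 iMGCs. In these bulk libraries fewer expressing cells and less RNA per cell cannot be told apart.

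**Figure D1:**
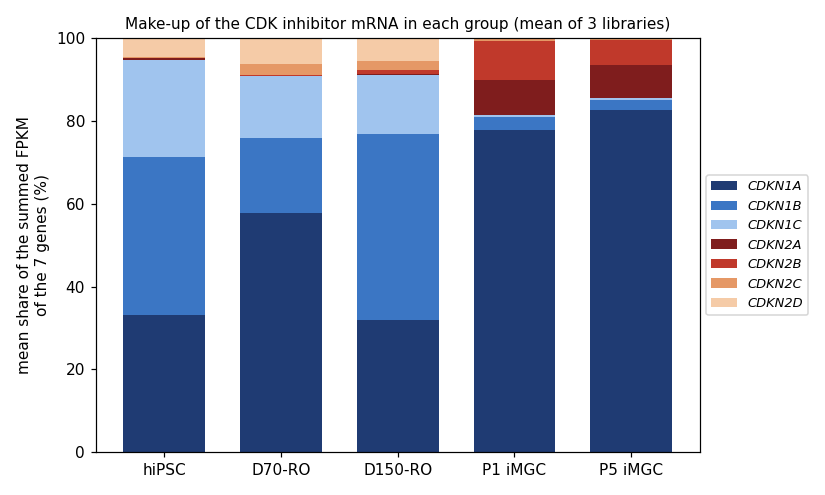
Stacked bars give the mean share (%) of each CDK inhibitor gene in the summed FPKM of the 7 genes, for 3 libraries in each of 5 groups. CDKN1A (dark blue) filled 77.7% and 82.7% of the bars of P1 and P5 iMGCs, and the red CDKN2A and CDKN2B segments are visible in those groups.

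CDKN1A lies on chromosome 6 (36676460 to 36687339, plus strand, GRCh38, GENCODE 29) and encodes p21, a broad inhibitor of cyclin-CDK complexes. Its level was 13.96, 12.23 and 12.53 FPKM in the 3 hiPSC libraries and 131.13, 184.06 and 110.90 FPKM in the D70-RO libraries. It was 35.96, 39.07 and 39.69 FPKM in D150-ROs. The D70-RO libraries were all above those of both neighbours in time, and D70-RO replicate 2, the shallowest library, was the highest of the group. The iMGCs had the highest levels of all, at 284.41, 290.36 and 286.12 FPKM in P1 and 322.42, 329.64 and 323.75 FPKM in P5. No 2 groups overlapped, in the order P5 iMGC, P1 iMGC, D70-RO, D150-RO and hiPSC. The log2 fold changes of the edgeR fit were 3.32 ± 0.20 (SE) for D70-RO against hiPSC, -2.12 ± 0.19 for D150-RO against D70-RO, 3.55 ± 0.05 for P1 iMGC against D150-RO and 0.24 ± 0.04 for P5 against P1 iMGC.

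CDKN1B on chromosome 12 (12715058 to 12722371, plus strand) encodes p27, the quiescence-associated inhibitor of CDK2. It was 15.28, 14.41 and 15.00 FPKM in hiPSCs, 46.63, 40.36 and 42.54 FPKM in D70-ROs and 51.92, 55.40 and 52.77 FPKM in D150-ROs. In iMGCs it was 12.94, 11.43 and 11.11 FPKM at P1 and 7.98, 9.00 and 9.86 FPKM at P5. Organoids thus held the highest levels and P5 iMGCs the lowest, and no 2 groups overlapped in FPKM. With FPKM rescaled to a common sum per library, however, hiPSCs (28.4 ± 1.05, SD, n = 3) and P1 iMGCs (27.9 ± 2.59) differed by less than their spread. The log2 fold change was 1.39 ± 0.11 (SE) for D70-RO against hiPSC and -1.53 ± 0.06 for P1 iMGC against D150-RO. Between the organoid ages it was 0.09 ± 0.08, and upper-quartile scaling turned its sign (-0.02), although the FPKM ratio of the means was 1.24. With the rescaled FPKM, CDKN1B stood at 77.3 ± 6.21 in D70-ROs and 134.9 ± 1.27 in D150-ROs (SD, n = 3), so the size of this difference depends on the scaling. CDKN1A stood at 0.72 ± 0.03 FPKM per FPKM of CDKN1B in D150-ROs (SD, n = 3), 24.4 ± 2.09 in P1 and 36.6 ± 3.78 in P5 iMGCs.

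CDKN1C on chromosome 11 (2883213 to 2885773, minus strand) encodes p57 and is an imprinted gene expressed from the maternal copy. Its level was 9.71, 9.06 and 8.68 FPKM in hiPSCs and 32.60, 42.86 and 33.32 FPKM in D70-ROs. It was 15.24, 18.98 and 17.01 FPKM in D150-ROs, then 1.60, 1.19 and 1.47 FPKM in P1 and 2.04, 1.96 and 1.93 FPKM in P5 iMGCs. D70-ROs were highest and P1 iMGCs lowest, with no overlap between any 2 groups. The log2 fold changes were 1.94 ± 0.17 (SE), -1.37 ± 0.15, -2.93 ± 0.14 and 0.55 ± 0.22 along the 4 consecutive comparisons. The iMGC levels rest on few reads, at 114 counts over the 3 P1 and 161 counts over the 3 P5 libraries.

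**Figure D2:**
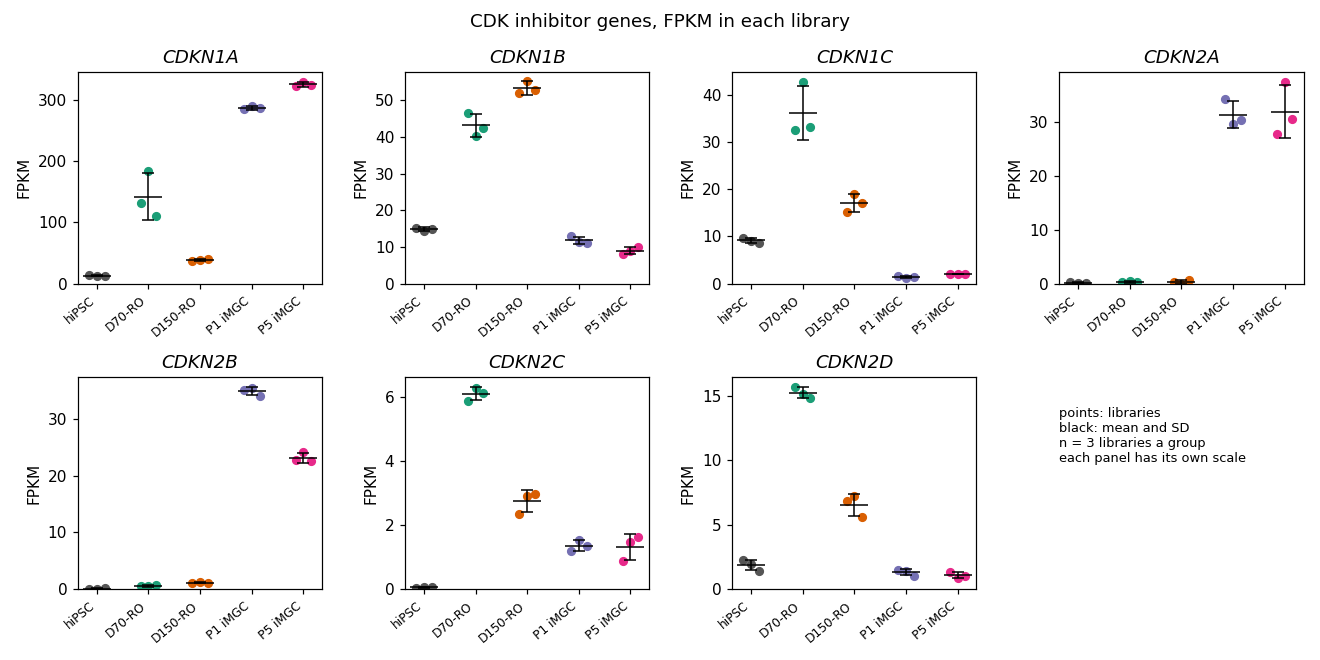
FPKM of each CDK inhibitor gene (vertical axis, own linear scale in each panel) in hiPSCs, D70-ROs, D150-ROs, P1 and P5 iMGCs. Points are libraries, and black marks are the mean and SD of 3. CDKN1A, CDKN2A and CDKN2B were highest in iMGCs, CDKN1B in D150-ROs, and CDKN1C, CDKN2C and CDKN2D in D70-ROs.

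Among the INK4 genes, CDKN2A on chromosome 9 (21967753 to 21995301, minus strand) encodes p16 and, from another first exon and reading frame, p14ARF. The gene-level values cover both. Its level was 0.29, 0.08 and 0.14 FPKM in hiPSCs, 0.20, 0.49 and 0.30 FPKM in D70-ROs and 0.26, 0.00 and 0.57 FPKM in D150-ROs, which came from 7, 13 and 12 counts a group. These 3 groups overlapped, and at this depth no order among them can be read. In iMGCs it was 34.17, 29.52 and 30.36 FPKM at P1 and 27.82, 37.41 and 30.45 FPKM at P5, from 1450 and 1451 counts, and these 2 groups overlapped. All 6 iMGC libraries were above all 9 others. Counts in P1 iMGCs per total count were 116 times those in D150-ROs, with an exact 95% interval of 66.4 to 225.6 that covers counting error only, and the log2 fold change was 7.45 ± 0.25 (SE).

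CDKN2B (chromosome 9, 22002903 to 22009363, minus strand) encodes p15, known as a gene that TGF-beta induces. It was 0.01, 0.00 and 0.05 FPKM in hiPSCs, 0.52, 0.41 and 0.69 FPKM in D70-ROs and 1.01, 1.21 and 1.02 FPKM in D150-ROs. The levels in P1 iMGCs were 35.22, 35.50 and 34.14 FPKM, and those in P5 iMGCs 22.75, 24.13 and 22.57 FPKM. Unlike CDKN2A, its groups did not overlap anywhere, and they stood in the order P1 iMGC, P5 iMGC, D150-RO, D70-RO and hiPSC. In hiPSCs it had 5 counts in all, against 107 in D70-ROs and 204 in D150-ROs, so D70-RO was 25.9 times hiPSC per total count with an exact 95% interval of 10.8 to 81.4. The log2 fold change was 0.76 ± 0.24 (SE) for D150-RO against D70-RO, 5.62 ± 0.08 for P1 iMGC against D150-RO and -0.52 ± 0.04 for P5 against P1 iMGC. For P1 iMGC against D150-RO the edgeR value is 49.3-fold. Per total count the ratio was 31.6, with an exact 95% interval of 27.5 to 36.5 that covers counting error only.

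CDKN2A and CDKN2B had like FPKM levels in P1 iMGCs but 1450 against 6701 counts, because the gene lengths that counts and FPKM imply were 924 bases for CDKN2A and 3826 bases for CDKN2B. The genes are paralogues. The longest stretch shared by their GENCODE transcripts was 80 bases, and 1.56% of the 31-base words of CDKN2A also occurred in CDKN2B. The antisense gene CDKN2B-AS1 (chromosome 9, 21994778 to 22121097, plus strand) overlapped 341 of the 3157 exonic bases of CDKN2A and 0 exonic bases of CDKN2B. Whether counting used strand is not given in the sources used here, so reads of the 2 genes cannot be told apart in those 341 bases. The antisense DINOL transcript shared 32 exonic bases with CDKN1A.

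CDKN2C on chromosome 1 (50960745 to 50974633, plus strand) encodes p18, the INK4 protein of many embryonic progenitors. It was 0.02, 0.04 and 0.07 FPKM in hiPSCs, 5.89, 6.30 and 6.13 FPKM in D70-ROs and 2.34, 2.90 and 2.97 FPKM in D150-ROs. In iMGCs it was 1.18, 1.52 and 1.35 FPKM at P1 and 0.86, 1.47 and 1.62 FPKM at P5, and only these 2 groups overlapped. D70-ROs had 586 counts against 5 in hiPSCs, which is 142 times as many per total count with an exact 95% interval of 60.4 to 438.4. The log2 fold change was 6.91 ± 0.34 (SE) for that comparison and -1.57 ± 0.19 for D150-RO against D70-RO. For P1 iMGC against D150-RO the FPKM ratio was 0.49, whereas the edgeR log2 fold change was -0.33 ± 0.22 with the TMM scaling and -0.97 with library totals alone.

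CDKN2D on chromosome 19 (10566462 to 10569059, minus strand) encodes p19, an INK4 protein known from postmitotic neurons. It was 2.21, 1.92 and 1.41 FPKM in hiPSCs, 15.73, 15.19 and 14.88 FPKM in D70-ROs and 6.86, 7.22 and 5.59 FPKM in D150-ROs. It was 1.44, 1.42 and 1.02 FPKM in P1 and 1.30, 0.83 and 1.02 FPKM in P5 iMGCs. D70-ROs were highest, D150-ROs were next, and hiPSCs, P1 and P5 iMGCs overlapped from neighbour to neighbour. The log2 fold changes were 2.94 ± 0.21 (SE), -1.44 ± 0.15, -1.68 ± 0.21 and -0.06 ± 0.29 along the 4 comparisons.

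**Figure D3:**
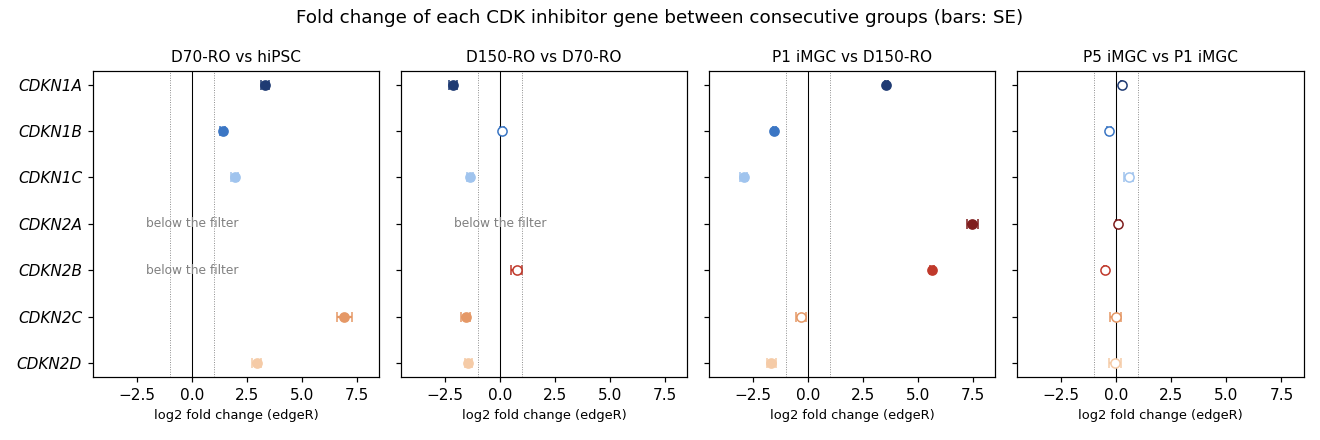
Log2 fold change (horizontal axis) of each CDK inhibitor gene in 4 consecutive comparisons of 3 against 3 libraries, with an SE derived from the edgeR test statistic as bars. Filled points were called (adjusted p under 0.05 and at least 2-fold), open points were not, and dotted lines mark 2-fold. In P1 iMGC against D150-RO, CDKN2A at 7.45 and CDKN2B at 5.62 lie farthest to the right.

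A gene was called when its adjusted p in edgeR's quasi-likelihood test was under 0.05 and its fold change at least 2. For D70-RO against hiPSC, 5 of the 7 inhibitor genes passed the filter on low values and 5 were called, all higher, where 43.5% of all genes tested were called, 22.5% higher and 21.1% lower. For D150-RO against D70-RO, 6 passed and 4 were called, all lower (33.3% of all genes, 16.6% higher and 16.7% lower). For P1 iMGC against D150-RO, 7 passed and 6 were called, CDKN1A, CDKN2A and CDKN2B higher and CDKN1B, CDKN1C and CDKN2D lower (44.1% of all genes, 20.0% higher and 24.1% lower). For P5 against P1 iMGC, 7 passed and 0 were called in edgeR, DESeq2 or limma, against 2.92% of all genes (1.94% higher and 0.977% lower). There 4 of the 7 had an unadjusted p under 0.05 in edgeR, as had 4477 of the 11366 genes tested. An adjusted p under 0.05 was reached by 3 of the 7, each at less than 2-fold, and by 3485 of all genes tested. CDKN2C in the first comparison, CDKN2B in the second and CDKN2A in the third passed the filter only through the group where they were higher. The libraries of the 2 groups did not overlap in FPKM for 6, 6, 7 and 4 of the 7 genes in the 4 comparisons, where they did not for 75.5%, 77.2%, 87.9% and 39.5% of all genes tested. The first of these counts includes CDKN2B, which did not pass the filter there, whereas the shares cover only genes that passed. Since the genes were chosen with these values known, nothing is read from the counts. Each comparison shares a group with the next.

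The comparison of P1 iMGC with D150-RO drew its counts from 2 tables and depended most on scaling. Of all calls 45.4% were higher with TMM factors, and 22.6% with library totals alone, which shifted the median log2 fold change by -0.64. For D150-RO against D70-RO the share was 49.8% with TMM factors, 43.4% with upper-quartile factors, and 63.9% with library totals (median shift 0.22). Direction and call of CDKN1A, CDKN1B, CDKN1C, CDKN2A, CDKN2B and CDKN2D in P1 iMGC against D150-RO were the same under every scaling run. The sizes of their fold changes depended on the scaling, which the SE does not cover.

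The kinases and cyclins that the inhibitors bind came from a list of 13 genes. CDK4, the INK4 partner with the highest level in each group, stood at 176 ± 5.57 FPKM in hiPSCs (SD, n = 3), 144 ± 17.8 in D70-ROs, 47.4 ± 2.53 in D150-ROs, 66.1 ± 3.29 in P1 and 64.6 ± 1.89 in P5 iMGCs. CDK6, its close relative, stood at 3.06 ± 0.92, 3.67 ± 0.87, 8.19 ± 0.49, 38.8 ± 0.90 and 38.6 ± 0.68 FPKM in the same order. From D70-RO to D150-RO CDK4 fell (log2 fold change -1.69 ± 0.11 SE, adjusted p = 2.39e-06), and from D150-RO to P1 iMGC CDK6 rose (2.87 ± 0.05, adjusted p = 6.94e-17). The call of CDK4 from D150-RO to P1 iMGC (1.23 ± 0.05) was lost with library totals alone, where the log2 fold change was 0.59. The 3 D-type cyclins that activate these kinases summed to 133 ± 3.99 FPKM in D70-ROs, 45.1 ± 3.29 in D150-ROs and 105 ± 7.81 in P1 iMGCs, most of it from CCND1 (102 ± 6.88, 27.7 ± 2.99 and 90.0 ± 7.37 FPKM). CCND1 fell from D70-RO to D150-RO (-2.11 ± 0.10, adjusted p = 5.04e-07) and rose from D150-RO to P1 iMGC (2.34 ± 0.07, adjusted p = 6.92e-14).

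The 4 INK4 genes together stood at 1.17 ± 0.27 FPKM per 100 FPKM of CDK4 and CDK6 in hiPSCs, 15.2 ± 1.63 in D70-ROs, 19.2 ± 1.64 in D150-ROs, 65.7 ± 2.22 in P1 and 55.7 ± 5.86 in P5 iMGCs (SD, n = 3). As the sum for the INK4 genes uses chosen genes, these ratios are a description. The numerator was mostly CDKN2D and CDKN2C in organoids (15.3 and 6.11 FPKM in D70-ROs) and CDKN2B and CDKN2A in iMGCs (35.0 and 31.4 FPKM at P1). The ratio compares mRNA levels per length and says nothing of protein. Its CDKN2A part covers p14ARF, which has another reading frame, as well as p16, and the share of each is not known.

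**Figure D4:**
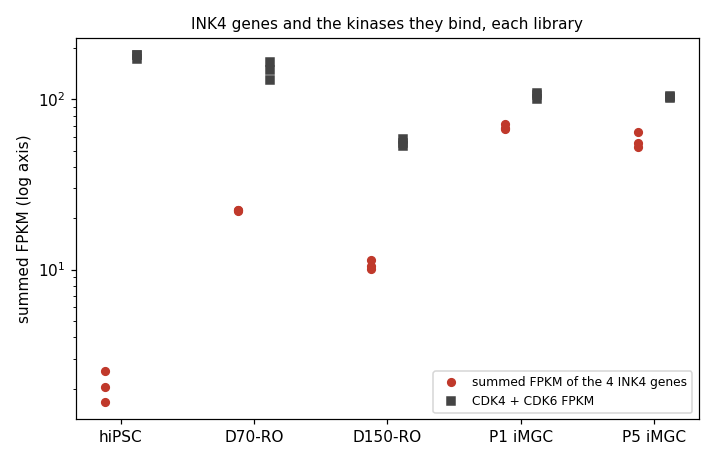
Summed FPKM of the 4 INK4 genes (red circles) and of CDK4 and CDK6 (grey squares) in each of 15 libraries, on a log axis. The kinases were above the INK4 genes in every library, by the most in hiPSCs (179 against 2.08 FPKM on average) and by the least in P1 iMGCs (105 against 68.9 FPKM). The CDKN2A part of the INK4 sum covers p14ARF as well as p16.

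Among the targets of CIP/KIP proteins, CDK2 stood at 27.5 ± 1.20, 30.97 ± 0.75, 14.1 ± 0.68, 9.39 ± 0.18 and 7.71 ± 0.57 FPKM from hiPSC to P5 iMGC and fell between the organoid ages (-1.41 ± 0.09, adjusted p = 1.72e-06). Its S-phase partner CCNA2 fell from hiPSC to D70-RO (-1.69 ± 0.15, adjusted p = 1.3e-06) and again to D150-RO (-1.63 ± 0.13, adjusted p = 8.71e-06). CCNE1, the G1/S partner, fell from 28.7 ± 3.00 FPKM in hiPSCs to 2.86 ± 0.81 in D70-ROs (-3.59 ± 0.18, adjusted p = 2.01e-08). CCNA1, a cyclin known from the germ line, was 0.67 ± 0.16 FPKM in hiPSCs, 12.9 ± 1.52 at day 70 and 0.91 ± 0.52 at day 150, which made it the largest rise (4.09 ± 0.24, adjusted p = 5.63e-08) and then the largest fall (-4.05 ± 0.33, adjusted p = 7.92e-06) of the list. Of the kinases and cyclins, 3 of 13 tested were called higher and 4 lower in D70-RO against hiPSC, 0 and 9 of 13 in D150-RO against D70-RO, and 6 and 1 of 12 in P1 iMGC against D150-RO, where library totals alone gave 2 and 1. In the first comparison 1 was called higher without D70-RO replicate 1 and 2 in limma, and CCNA1 passed the filter there only through D70-ROs. The median log2 fold changes were -0.45, -1.63 and 1.10, against 0.02, -0.01 and -0.05 over all genes tested. In D150-RO against D70-RO, where 0 were called higher, 11 of the 13 had an unadjusted p under 0.05. DESeq2 also called 0 higher, while limma on log2(FPKM + 0.1), library totals alone and the fit without D70-RO replicate 3 each called 1. CCND2 stood at 20.1, 13.1, 9.79, 5.00 and 8.45 FPKM from hiPSC to P5 iMGC and CCND3 at 15.2, 17.5, 7.63, 9.72 and 8.09 FPKM.

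Downstream of the kinases, RB1, the retinoblastoma gene, rose from 5.09 ± 0.57 FPKM in hiPSCs to 17.4 ± 4.65 in D70-ROs (1.63 ± 0.18, adjusted p = 9.06e-06), and RBL2, which encodes p130, rose with it (1.17 ± 0.13, adjusted p = 1.06e-05). RB1 was 27.2, 22.8 and 20.8 FPKM in D150-ROs, P1 and P5 iMGCs, and RBL1, which encodes p107, was 1.39 to 3.42 FPKM in all groups. E2F1, an activating E2F, stood at 17.7 ± 1.20 FPKM in hiPSCs, 15.8 ± 1.47 at day 70 and 9.34 ± 0.40 at day 150 and fell to 0.86 ± 0.28 in P1 iMGCs (-2.81 ± 0.17, adjusted p = 2.01e-10). E2F7, a repressive E2F, fell from hiPSC to D70-RO (-2.07 ± 0.15, adjusted p = 3.35e-07), and E2F2 fell between the organoid ages (-2.44 ± 0.23, adjusted p = 1.85e-05). E2F2 passed the filter there only through D70-ROs. Of the pocket proteins and E2Fs, 2 of 13 were called higher and 3 lower in D70-RO against hiPSC, 0 and 2 of 13 in D150-RO against D70-RO (11 at an unadjusted p under 0.05, and 0 higher in DESeq2 but 1 or 2 in limma), and 1 and 2 of 12 in P1 iMGC against D150-RO (0 and 5 with library totals alone). Without D70-RO replicate 2 only 1 was called lower in the second comparison, and without any 1 D150-RO library only 1 in the third.

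Proliferation genes, a list of 18, gave 0 called higher and 13 lower in D70-RO against hiPSC, and 0 and 14 in D150-RO against D70-RO, with medians of -2.05 and -1.62. At an unadjusted p under 0.05 there were 16 and 17, and none was called higher in these comparisons in DESeq2, in limma or under the other scalings run. The kinase PLK1 had the largest fall in the first (-3.52 ± 0.13, adjusted p = 2.47e-09) and AURKB in the second (-2.97 ± 0.23, adjusted p = 6.21e-06). MKI67 fell from 16.5 ± 2.58 FPKM in hiPSCs to 7.28 ± 3.02 in D70-ROs (-1.34 ± 0.24, adjusted p = 0.000424) and stood at 5.53, 4.17 and 3.27 FPKM in D150-ROs, P1 and P5 iMGCs. In P1 iMGC against D150-RO the list gave 3 called higher and 1 lower with TMM factors (median 0.38) but 0 and 5 with library totals alone (median -0.26), so no direction is given for it. It gave 1 called higher without D150-RO replicate 1 and 5 without P1 iMGC replicate 2. Within that list the replication gene MCM7 was called lower under both (-1.59 ± 0.07, adjusted p = 8.57e-12), while the call of AURKA (1.15 ± 0.12) was lost with library totals.

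**Figure D5:**
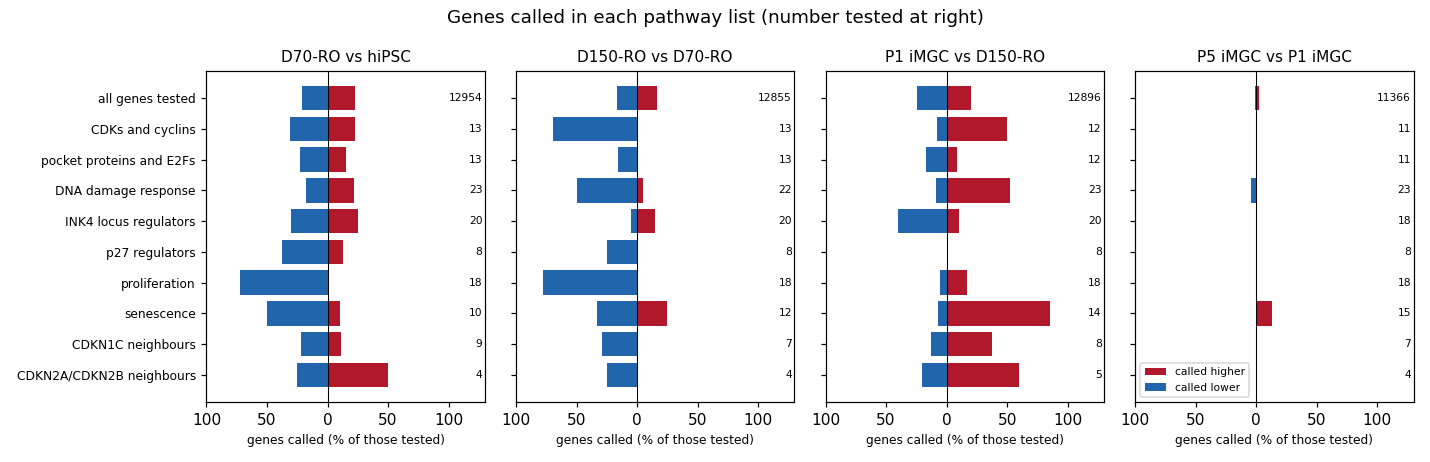
Share of the genes tested in each pathway list that was called higher (red, to the right) or lower (blue, to the left) in 4 comparisons, with the number tested at the right of each row and all genes tested on top. Proliferation genes were called lower in 13 of 18 and 14 of 18 cases in the first 2 comparisons, and senescence genes higher in 12 of 14 in P1 iMGC against D150-RO. The senescence genes CXCL8, ICAM1 and PLAU passed the filter in that comparison only through P1 iMGCs.

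DNA damage response genes, a list of 23 without CDKN1A, itself a gene of that response, gave 5 called higher and 4 lower of 23 tested in D70-RO against hiPSC (median 0.38). GADD45A, a stress and repair gene, had the largest rise (2.56 ± 0.16, adjusted p = 9.49e-08), and FDXR, a mitochondrial reductase gene, the largest fall (-1.35 ± 0.16, adjusted p = 1.36e-05). In D150-RO against D70-RO 1 of 22 was called higher and 11 lower (median -0.94). CCNG1, which encodes cyclin G1, had the largest fall (-2.72 ± 0.09, adjusted p = 9.27e-08), and MDM4, a relative of MDM2, was the 1 called higher (2.18 ± 0.11, adjusted p = 7.46e-07).

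In P1 iMGC against D150-RO 12 of the 23 were called higher and 2 lower (median 1.06), and 9 and 4 with library totals alone (median 0.42). Whether DNA was damaged in any group was not tested. The secreted stress marker GDF15 had the largest rise, from 0.29 ± 0.12 to 11.7 ± 0.53 FPKM (5.99 ± 0.23, adjusted p = 1.1e-12), and MDM4 the largest fall (-2.02 ± 0.07, adjusted p = 9.33e-14). GDF15 passed the filter there only through P1 iMGCs. MDM2, a ubiquitin ligase gene, was 41.4 ± 16.1 FPKM in D150-ROs and 48.9 ± 0.45 in P1 iMGCs, where the libraries overlapped in FPKM. Its call (1.64 ± 0.05) was lost with library totals. From P1 to P5 iMGCs GDF15 fell to 4.43 ± 0.21 FPKM (-1.34 ± 0.12, adjusted p = 3.69e-09), the only call of the list there in edgeR and in DESeq2.

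The INK4 locus regulators, a list of 20 Polycomb subunits, histone demethylases and transcription factors, gave 5 called higher and 6 lower in D70-RO against hiPSC and 3 and 1 in D150-RO against D70-RO. BMI1, the Polycomb subunit known for silencing CDKN2A, rose from 1.96 ± 0.23 FPKM in hiPSCs to 22.4 ± 3.91 in D70-ROs (3.41 ± 0.19, adjusted p = 3.31e-08) and stood at 43.3 ± 2.52 FPKM in D150-ROs, 16.5 ± 0.50 in P1 and 15.8 ± 0.12 in P5 iMGCs. In P1 iMGC against D150-RO 2 of 20 were called higher and 8 lower (median -0.84), and 2 and 15 with library totals alone. CBX7 fell from 5.69 ± 0.49 to 0.61 ± 0.01 FPKM (-2.45 ± 0.13, adjusted p = 7.33e-11), EZH2, the Polycomb methyltransferase, from 22.3 ± 1.24 to 4.47 ± 0.36 FPKM (-1.67 ± 0.08, adjusted p = 1.86e-11), and CBX8 had the largest fall (-2.53 ± 0.19, adjusted p = 4.67e-09). CBX7 and CBX8 passed the filter there only through D150-ROs. CBX2 had the largest fall between the organoid ages (-2.15 ± 0.09, adjusted p = 3.22e-07). ETS1, an activator of p16 transcription, was 11.2 ± 0.55, 0.09 ± 0.05, 1.43 ± 0.09, 41.1 ± 3.83 and 41.9 ± 2.46 FPKM from hiPSC to P5 iMGC, and its rise from D150-RO to P1 iMGC was the largest of the list (5.36 ± 0.08, adjusted p = 8.94e-18). From D150-RO to P1 iMGC the listed histone demethylases KDM2B, KDM6A and KDM6B were lower in mean FPKM (20.5 to 6.16, 15.8 to 6.97 and 25.1 to 4.38). These are FPKM means without TMM factors, so their differences depend on the scaling, and no call is given for them. What part the listed regulators had was not tested. Of the 8 fibroblast and mesenchymal markers, 6 were higher in P1 iMGCs beside CDKN2A and CDKN2B, and PDGFRA and PRRX1 were lower. Their part in the result was not tested.

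The p27 regulators, a list of 8 genes of the SCF-SKP2 ubiquitin ligase and FOXO factors, gave 1 called higher and 3 lower in D70-RO against hiPSC and 0 and 2 in D150-RO against D70-RO, where 8 had an unadjusted p under 0.05, DESeq2 called 0 higher and limma called 1. SKP2, which marks p27 for degradation, stood at 26.5 ± 2.90, 16.4 ± 2.40, 13.2 ± 0.80, 4.72 ± 0.57 and 4.47 ± 1.10 FPKM from hiPSC to P5 iMGC and was called in no comparison with TMM factors. Its cofactor CKS1B fell from 186 ± 17.7 to 49.7 ± 5.34 FPKM (-2.05 ± 0.12, adjusted p = 7.4e-08) and then to 10.9 ± 2.56 FPKM in D150-ROs (-2.41 ± 0.17, adjusted p = 4.21e-06). FOXO3, an activator of CDKN1B, rose from hiPSC to D70-RO (1.12 ± 0.12, adjusted p = 4.85e-06), a call that limma did not make at 0.84 and 0.90 with pseudocounts of 1 and 0.1, and FOXO1 fell (-2.06 ± 0.12, adjusted p = 4.68e-08). In P1 iMGC against D150-RO 0 of 8 were called in edgeR or DESeq2, with 7 at an unadjusted p under 0.05, and 0 higher and 4 lower in limma or with library totals alone. Without P1 iMGC replicate 2, 1 was called higher.

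Senescence-associated genes, a list of 17 secreted factors and nuclear genes, gave 1 called higher and 5 lower of 10 tested in D70-RO against hiPSC, 3 and 4 of 12 in D150-RO against D70-RO, and 12 and 1 of 14 in P1 iMGC against D150-RO (11 and 2 with library totals). Without any 1 hiPSC library 3 in place of 5 were called lower in the first, and without any 1 D150-RO library 1 in place of 3 was called higher in the second and 2 in place of 1 lower in the third. In P1 iMGC against D150-RO the median was 4.00, against -0.05 over all genes tested, of which 20.0% were called higher and 24.1% lower. There CXCL8, ICAM1 and PLAU passed the filter only through P1 iMGCs. INHBA, which encodes the activin A subunit, stood at 0.06 ± 0.06, 1.44 ± 0.08, 108 ± 4.65 and 80.9 ± 1.52 FPKM from D70-RO to P5 iMGC. It rose from D70-RO to D150-RO (4.97 ± 0.43, adjusted p = 1.1e-05), where it passed the filter only through D150-ROs, and again to P1 iMGC (6.94 ± 0.07, adjusted p = 1.77e-19). PLAU, a secreted protease, had the largest fall in D70-ROs (-6.58 ± 0.22, adjusted p = 1.32e-09) and passed the filter there only through hiPSCs. IGFBP7 had the largest rise in P1 iMGCs (8.56 ± 0.07, adjusted p = 1.37e-19). LMNB1, the lamin that falls in senescent cells, fell from 28.5 ± 1.27 to 5.52 ± 0.47 FPKM (-1.72 ± 0.07, adjusted p = 2.82e-12), and earlier stood at 95.4 ± 5.96 FPKM in hiPSCs and 52.4 ± 7.42 in D70-ROs. From P1 to P5 iMGCs 2 of 15 were called higher, IL6 (2.66 ± 0.32, adjusted p = 5.23e-07, at 0.60 and 3.31 FPKM) and IGFBP5 (1.07 ± 0.04, adjusted p = 1.09e-15). IL6 passed the filter only through P5 iMGCs, and without any 1 P5 library only 1 of the 2 was called. Several of these secreted factors are also made by fibroblasts, of whose 8 markers 6 were higher and PDGFRA and PRRX1 lower in P1 iMGCs, and the part of such cells was not tested.

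From P1 to P5 iMGCs the remaining pathway genes were called in 0 of 11 kinases and cyclins, 0 of 11 pocket proteins and E2Fs, 0 of 18 INK4 locus regulators, 0 of 8 p27 regulators and 0 of 18 proliferation genes in edgeR, DESeq2 and limma alike. At an unadjusted p under 0.05 in edgeR the numbers were 5, 5, 7, 1 and 6.

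For each inhibitor gene the genes with the most similar pattern were taken as those with the smallest root mean square difference of log2(FPKM + 1), centred on each gene's mean, over the 15 libraries and among 13402 genes. CDKN1A was nearest to ACKR3 (0.45) and SPHK1 (0.49), and CDKN1B to PRR3 (0.16) and MTMR4 (0.17). CDKN1C was nearest to GFY (0.23) and RNF144A (0.25). CDKN2A was nearest to SYNC (0.27) and SSC5D (0.28), and CDKN2B to PAPPA (0.14) and TNS1 (0.29). CDKN2C was nearest to EFNB2 (0.23) and DACT3 (0.23), and CDKN2D to AIFM3 (0.16) and CLVS1 (0.17). PAPPA, a protease that cleaves IGF-binding proteins, stood at 0.06, 0.58, 0.86, 30.1 and 23.0 FPKM from hiPSC to P5 iMGC, beside 0.02, 0.54, 1.08, 35.0 and 23.2 FPKM for CDKN2B. None of the other inhibitor genes was among the 2 nearest of any of the 7. The libraries share 5 groups, so these differences measure likeness of group patterns and carry no test.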

How the data were processed

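The study sequenced poly(A) RNA of 15 libraries, 3 in each of 5 groups, which were taken from the labels. According to the methods and the submitters' processing notes, the authors aligned reads with HISAT2, assembled and quantified with StringTie and RSEM, and used DESeq2. Versions, genome build and strand use are not given in the sources used here. They deposited expected counts and FPKM per gene, in 1 table for hiPSCs and organoids and another for iMGCs. The expected counts were rounded to whole numbers. A table with 6 columns of iMGCs without a passage was not used. Symbols and positions came from GENCODE 29 (GRCh38), to which all 19684 identifiers matched, and promoter windows from RefSeq (GRCh38.p14), which held 9 windows for 6 of the 7 inhibitor genes.

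In each comparison, genes that reached 1 FPKM in 3 or more of the 6 libraries entered edgeR 4.0.16 in R 4.3.3 (quasi-likelihood, TMM factors, two-sided, Benjamini-Hochberg over all genes tested). A call needed both an adjusted p below 0.05 and a change of 2-fold or more. This was checked on simulated counts. Alternatives were DESeq2 1.42.0, limma 3.58.1 on log2(FPKM + 1) and log2(FPKM + 0.1), upper-quartile factors, no filter, 1 fit of all 15 libraries, a replicate block, leaving out each library, and, chosen after seeing the data, library totals alone. The inhibitor genes and pathway lists were chosen with earlier results of these data known. Named were the 7 genes, 26 fixed list genes, in each comparison and list the called gene with the largest rise and fall among those whose libraries did not overlap, and the 2 genes nearest in pattern to each inhibitor gene. Also named were the histone demethylases among the INK4 locus regulators and senescence genes that passed the filter through 1 group only. Some listed genes are not reported here, and list counts leave them out. Intervals of count ratios are exact (Clopper-Pearson) and cover counting error only. The SE of an edgeR log2 fold change was its absolute value divided by the square root of the quasi-likelihood F statistic.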

Additional observations from a re-analysis of the deposited data

How the results depend on the processing

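Of 341 values of the inhibitor genes' fold changes under other settings, 332 kept their direction and side of the threshold. CDKN1B in D150-RO against D70-RO turned to a log2 fold change of -0.0160 with upper-quartile factors. Leaving out 1 library gave, in P5 against P1 iMGC, -0.0653 to 0.17 for CDKN2A, -0.17 to 0.15 for CDKN2C and -0.23 to 0.13 for CDKN2D. CDKN2C in D150-RO against D70-RO was -0.93 and no longer called in limma on log2(FPKM + 1). Of the inhibitor genes, 6 in place of 5 were called in D70-RO against hiPSC with no filter and 4 without any 1 D70-RO library, and 5 in place of 6 in P1 iMGC against D150-RO without any 1 P1 library, since CDKN2C or CDKN2A then reached 1 FPKM in too few libraries to be tested. In P5 against P1 iMGC 332 genes were called in all, 694 with no filter and 152 in limma on log2(FPKM + 1). Same-numbered libraries did not deviate together in every pair (correlations -0.079 to 0.350), so the numbers were not taken to pair the samples, and with the replicate block 5662, 4317, 5691 and 333 genes were called in the 4 comparisons, against 5639, 4276, 5686 and 332. Leaving out a library also kept other listed genes that reach 1 FPKM in 1 group alone from being tested. Library totals alone were chosen after seeing the data. Low counts limit CDKN2A, CDKN2B and CDKN2C in hiPSCs and CDKN2A in organoids.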

Other observations

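The chromosomal neighbours of the inhibitor genes gave further values. CDKN1C lies in an imprinted domain with IGF2, a growth factor gene, and PHLDA2, a placental growth regulator. IGF2 stood at 0.28 ± 0.07, 9.52 ± 2.56, 16.7 ± 1.81, 0.04 ± 0.03 and 0.24 ± 0.12 FPKM (SD, n = 3) from hiPSC to P5 iMGC. It rose from hiPSC to D70-RO (log2 fold change 5.03 ± 0.31 SE, adjusted p = 7.62e-08 in edgeR) and fell from D150-RO to P1 iMGC (-8.77 ± 0.21, adjusted p = 2.3e-15). A second gene identifier also carries the name IGF2, and its reads are not in these values. PHLDA2 moved the other way in both, at 3.94 ± 1.32, 0.11 ± 0.20, 0.52 ± 0.40, 30.7 ± 2.28 and 21.2 ± 2.77 FPKM, with a fall of -5.62 ± 0.72 (adjusted p = 3.1e-05) and a rise of 6.47 ± 0.24 (adjusted p = 4.36e-13). SLC22A18, the gene beside PHLDA2, fell between the organoid ages (-1.55 ± 0.22, adjusted p = 0.000226), a call lost in limma on log2(FPKM + 1) (-0.96). Of 14 listed neighbours of CDKN1C, 8 were tested in P1 iMGC against D150-RO, with 3 called higher and 1 lower. IGF2 and PHLDA2 passed the filter in both comparisons only through the group where each was higher, so that without any 1 library of that group they were not tested. Antisense transcripts overlap IGF2, and their reads cannot be told apart without strand.

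Beside CDKN2A and CDKN2B, MTAP, a methionine salvage enzyme, fell from hiPSC to D70-RO (-1.12 ± 0.12, adjusted p = 6.37e-06), a call lost with library totals alone (-0.98) and without D70-RO replicate 2 (-0.99). It rose from 4.35 ± 0.42 FPKM in D150-ROs to 12.7 ± 1.29 in P1 iMGCs (1.94 ± 0.07, adjusted p = 2.49e-13). The interferon gene IFNE had the largest rise among these neighbours in P1 iMGCs (6.07 ± 0.51, adjusted p = 1.66e-08), from 0.03 ± 0.02 to 1.47 ± 0.12 FPKM. ELAVL2, a neuronal RNA-binding protein gene, rose from hiPSC to D70-RO (1.82 ± 0.24, adjusted p = 3.8e-05), then fell to D150-RO (-1.52 ± 0.22, adjusted p = 0.000285) and to P1 iMGC (-4.05 ± 0.16, adjusted p = 1.5e-12). Of the 6 listed neighbours, 5 were tested in P1 iMGC against D150-RO, with 3 called higher and 1 lower, and 2 and 1 with library totals alone. Here IFNE passed the filter only through P1 iMGCs and ELAVL2 only through D150-ROs. From P1 to P5 iMGCs 0 of 7 and 0 of 4 neighbours of the 2 loci were called in edgeR, DESeq2 or limma, with 3 and 3 at an unadjusted p under 0.05 in edgeR.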
